A study of Rattus norvegicus with 6 samples.

Results

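Thy1, Pdgfra, Pdgfrb, Dcn, Lum, Bgn and Fmod are 7 genes of the fibroblast surface and of the small leucine-rich proteoglycans that fibroblasts secrete. They are 7 of the 4736 genes named on a rat expression array, measured by 16 of its 8799 probe sets, and all 16 are described. The genes were chosen from an earlier look at these same arrays, in which Thy1, Pdgfra, Dcn and Lum were lower under a high corn oil diet, so the diet differences below are a description and carry no test. Each of the 6 arrays held total RNA from the dorsolateral prostate of 1 male rat of the inbred ACI strain, aged 18 months. Over those 18 months 3 of the rats ate a diet high in corn oil and 3 a diet low in it, and no other treatment or genotype was named. The title and source name of high corn oil replicate 3 gave the high diet and its description gave the low diet. It was analysed as high.

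The surface genes and the proteoglycan genes mark the stroma that surrounds the prostatic glands. Thy1 encodes a small glycoprotein anchored in the membrane by a lipid, carried by fibroblasts and also by neurons and, in the rat, by some lymphoid cells. Pdgfra and Pdgfrb encode the receptor tyrosine kinases of the platelet-derived growth factors, with Pdgfra typical of fibroblasts and Pdgfrb also of the pericytes around small vessels. Dcn (decorin), Bgn (biglycan), Lum (lumican) and Fmod (fibromodulin) are small secreted proteins built mostly of leucine-rich repeats. Decorin, lumican and fibromodulin bind collagen and influence how its fibrils assemble. Decorin and biglycan carry chondroitin or dermatan sulfate chains, and lumican and fibromodulin keratan sulfate.

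Dcn and Lum are adjacent protein-coding genes on chromosome 7 in the GRCr8 annotation, followed by the proteoglycan genes Kera and Epyc. Fmod lies on chromosome 13 beside Prelp and Optc, of the same family, and Bgn is on the X chromosome. RefSeq promoter sequences (GRCr8) were matched for 3 of the 7 genes. All 3 are shown, as the only ones matched. Pdgfra and Lum were among the lower genes and Fmod was not, and nothing is read from that contrast. Each run holds the 250 bases before the annotated start, 5′ to 3′ on the gene's strand. For Pdgfra and Lum the annotation also has starts further upstream. Capitals mark matches, on either strand, to the CCAAT box by that spelling, to the GC box in the form GGGCGG and to the AP-1-like site TGANTCA.
Pdgfra, chr14:33408517-33408766, minus strand: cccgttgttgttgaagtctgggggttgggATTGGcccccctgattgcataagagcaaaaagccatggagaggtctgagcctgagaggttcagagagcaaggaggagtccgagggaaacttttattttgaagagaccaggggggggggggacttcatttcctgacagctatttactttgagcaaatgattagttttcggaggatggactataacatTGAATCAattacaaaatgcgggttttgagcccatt
Lum, chr7:34245456-34245705, plus strand: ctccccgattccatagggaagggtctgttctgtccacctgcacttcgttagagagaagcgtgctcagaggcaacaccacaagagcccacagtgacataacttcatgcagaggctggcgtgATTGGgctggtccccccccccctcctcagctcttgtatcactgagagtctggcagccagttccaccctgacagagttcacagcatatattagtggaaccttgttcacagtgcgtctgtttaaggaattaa
Fmod, chr13:48045317-48045566, plus strand: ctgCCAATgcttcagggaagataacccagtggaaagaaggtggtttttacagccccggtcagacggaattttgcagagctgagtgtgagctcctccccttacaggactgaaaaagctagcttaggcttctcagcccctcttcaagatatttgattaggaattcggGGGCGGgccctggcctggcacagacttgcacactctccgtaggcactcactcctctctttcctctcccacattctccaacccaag
Counting the last base before the start as -1, a CCAAT match began at -221 in Pdgfra, -130 in Lum and -247 in Fmod. All 3 windows thus held it, against 34% of the 33469 rat promoter windows of that length. GGGCGG occurred only in Fmod among the 3, at -85 (30.5% of all windows), and TGANTCA only in Pdgfra, at -35 (6.34% of all windows). None of the 3 held the TATA box spelled TATAAA (12.9% of all windows). None held the SMAD motif spelled CAGACA (17.2%). The E-box, CANNTG, was in Pdgfra and Lum (65.5% of all). No marked match overlapped another. GC content was 47.2%, 52.8% and 52.8%, with a median of 51.2% over all windows. These are letter matches and no binding was measured.

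The values were scaled intensities in arbitrary units, with array medians of 573 to 710 and 18.6% to 23.1% of the values at or below 0. High corn oil replicate 1 stood apart from its group, with Spearman correlations (across tested probe sets) of 0.869 and 0.881 to the other high corn oil arrays and 0.927 to 0.950 to the low ones. High corn oil replicate 3 correlated at 0.932 with replicate 2 of the high diet and at 0.857 to 0.897 with the low corn oil arrays. The signal of bacterial spike-in controls was high on 3 arrays, namely replicates 1 and 2 of the low diet and replicate 1 of the high diet, and low on the others. Prostate secretory and epithelial genes were bright, as the tissue label implies: Pbsn (probasin) ranged from 19851 to 99574 and Krt18, a keratin of luminal cells, from 23695 to 34742, and 11 of 12 epithelial markers were bright enough to test. A probe set was tested when its mean over the 6 arrays was at least 343, which kept 5244 probe sets. Of the 16 probe sets of the 7 genes 11 were kept, for 6 genes.

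Of these 11 probe sets, 7 were lower and 4 higher in the mean under the high corn oil diet. In 5 of them, covering Thy1 (both probe sets), Pdgfra, Dcn and Lum, every high corn oil array was below every low corn oil array. None had separate groups in the other direction. Over all 5244 probe sets, 6.71% had separate groups with the high diet lower and 8.83% with the high diet higher. Because these genes were picked from this comparison, nothing is read from that difference in shares. In limma with Benjamini-Hochberg adjustment over all 5244 probe sets, 0 passed an adjusted p of 0.05 (0%) among the members and in the whole table, where 522 (9.95%) were at an unadjusted p under 0.05. Without high corn oil replicate 1, 214 of the 5244 passed (4.08%), and 1 of them, X59859_i_at of Dcn, was among the 11, from which nothing is read. The array number, 3 per diet, limits the precision of every difference.

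**Figure D1:**
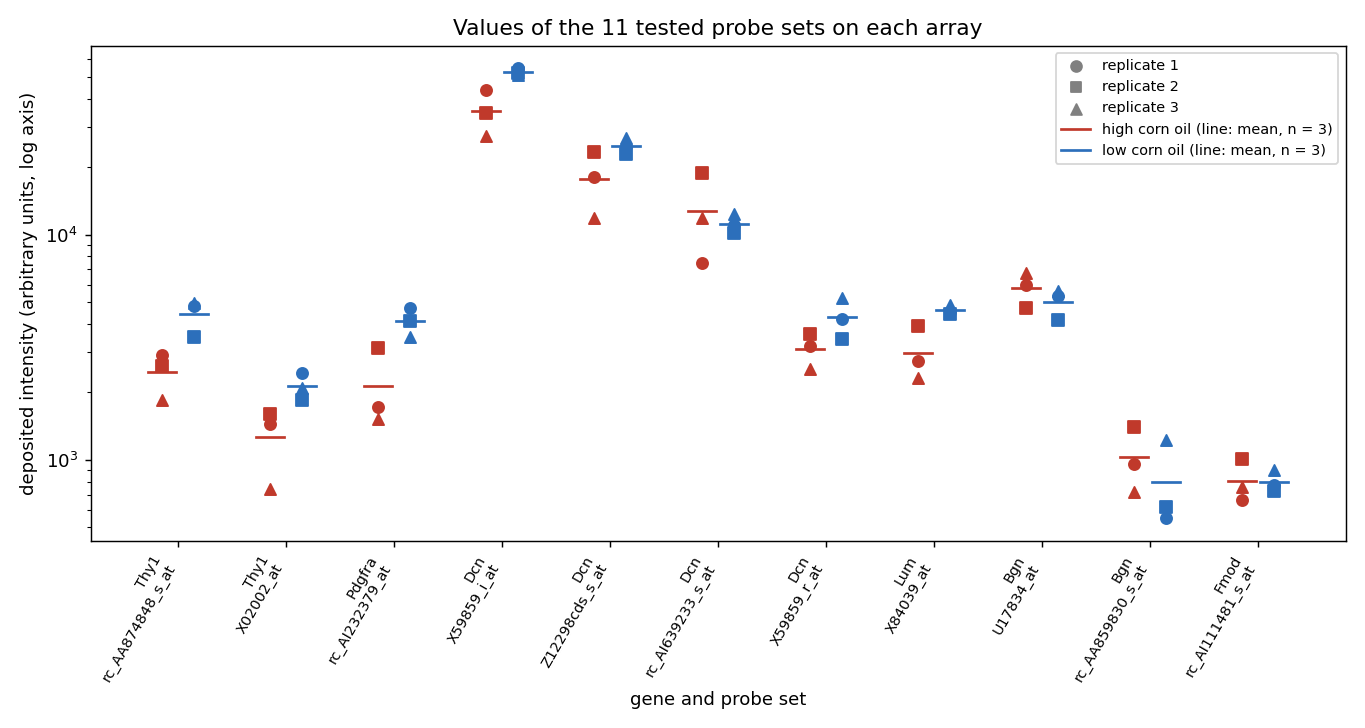
Deposited intensity (arbitrary units, log axis) of the 11 tested probe sets, with 1 point per array, high corn oil in red and low corn oil in blue, and lines at the diet means (n = 3). For both Thy1 probe sets, Pdgfra, the brightest Dcn probe set and Lum the red points all lie below the blue ones, while for Bgn and Fmod they overlap.

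Thy1 was lower under the high diet by both of its probe sets. With rc_AA874848_s_at the values were 2922, 2619 and 1846 in high corn oil replicates 1 to 3 and 4824, 3510 and 4965 in low corn oil replicates 1 to 3. The highest of the high corn oil values was thus below the lowest of the low corn oil values. The means were 2462 ± 555 (SD, n = 3) and 4433 ± 803, a log2 difference (high minus low) of -0.82 ± 0.23 (SE). With X02002_at the values were 1434, 1602 and 739 against 2430, 1840 and 2075, and the log2 difference was -0.73 ± 0.29. High corn oil replicate 3 was lowest with both. Centred on its own mean over 6 arrays, each probe set placed 5 of the 6 arrays on the same side, and their profiles differed by a root mean square of 0.18 on the log2 scale. Without high corn oil replicate 3 the differences were -0.63 and -0.43, and on moving it to the low group they were -0.34 and -0.10.

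Pdgfra, the receptor for several platelet-derived growth factor dimers, was measured by 1 of its 4 probe sets. With rc_AI232379_at, high corn oil replicates 1 to 3 had 1710, 3130 and 1510 and low corn oil replicates 1 to 3 had 4739, 4113 and 3493. The groups were separate, and high corn oil replicate 2 came closest to the low arrays. The means were 2117 ± 883 (SD, n = 3) and 4115 ± 623, and the log2 difference of -0.97 ± 0.28 (SE) was the largest of the 11 in size. It was -1.27 without high corn oil replicate 2 and -0.78 without replicate 3, and -0.44 with replicate 3 moved to the low group. The other 3 probe sets of Pdgfra were too dim to test: rc_AI137657_at was below 0 on all 6 arrays, Z14118cds_at ranged from -93.7 to 66.4 and Z14118cds_g_at from -211.5 to 352.5. The difference of Pdgfra therefore had no second probe set to set beside it.

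Pdgfrb, the receptor shared with pericytes, had a single probe set, Z14119cds_at, and it was not tested. Its values were 219, -180 and -73.0 for the high diet against 118, 271 and 109 for the low. The arrays of the 2 diets overlapped, all values were below the filter level of 343, and 2 of 3 high corn oil values were below 0. No fold is given.

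Dcn, the collagen-binding proteoglycan decorin, was bright on all arrays, and its 4 probe sets did not give the same picture. The brightest, X59859_i_at, had 44070, 34739 and 27404 in high corn oil replicates 1 to 3 and 54740, 52325 and 50987 in low corn oil replicates 1 to 3. The low corn oil arrays lay close together and the high corn oil arrays were all lower and more spread. The means were 35404 ± 8353 (SD, n = 3) and 52684 ± 1902, and the log2 difference was -0.60 ± 0.19 (SE). The difference was -0.77 without high corn oil replicate 1, -0.43 without replicate 3 and -0.19 with that array counted as low.

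Z12298cds_s_at read 17997, 23182 and 11881 on the high corn oil arrays and 24759, 22771 and 26740 on the low ones. Here high corn oil replicate 2 lay above low corn oil replicate 2, so the groups overlapped. The log2 difference was -0.53 ± 0.24, but -0.27 without high corn oil replicate 3 and -0.01 with that array counted as low. X59859_r_at read 3184, 3616 and 2536 against 4210, 3436 and 5213. Again only the arrays numbered 2 of either diet crossed, and the difference was -0.44 ± 0.21. It was -0.29 without low corn oil replicate 3.

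The probe set rc_AI639233_s_at stood against the other 3. On the high corn oil arrays it read 7513, 18722 and 11849, and on the low ones 11023, 10127 and 12379. The high corn oil arrays held both the lowest and the highest value, with a log2 difference of 0.09 ± 0.31. The sign was not stable: it was 0.41 without high corn oil replicate 1, -0.24 without replicate 2 and -0.11 with spike-in level as a block.

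Centring each Dcn probe set on its own mean over the 6 arrays allowed the profiles to be compared array by array. Among X59859_i_at, Z12298cds_s_at and X59859_r_at the root mean square distance between profiles was 0.18 to 0.25 on the log2 scale. From rc_AI639233_s_at to these 3 it was 0.45 to 0.62. The widest gap was on high corn oil replicate 2, where rc_AI639233_s_at was 0.70 above its own mean and X59859_i_at 0.30 below its mean. On high corn oil replicate 3 the 3 other probe sets were 0.49 to 0.78 below their means and rc_AI639233_s_at was 0.04 above. Counted by side alone, without regard to size, the picture was less clear. The probe set rc_AI639233_s_at was on the same side of its mean as X59859_i_at on 1 of 6 arrays, as Z12298cds_s_at on 3 and as X59859_r_at on 4. Among the other 3, Z12298cds_s_at shared its side with X59859_r_at on 5 arrays and with X59859_i_at on 4. X59859_i_at and X59859_r_at, which carry the same sequence name, shared theirs on 3. The median difference over the 4 probe sets was -0.48, -0.29 without high corn oil replicate 3 and -0.07 with that array moved to the low group. In this array maker's naming, as background, the suffix s marks probes shared by similar transcripts, and i and r mark sets for which the usual rules of probe selection were not fully met. The probe sequences were not used here, and whether they bear on the disagreement was not tested.

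**Figure D2:**
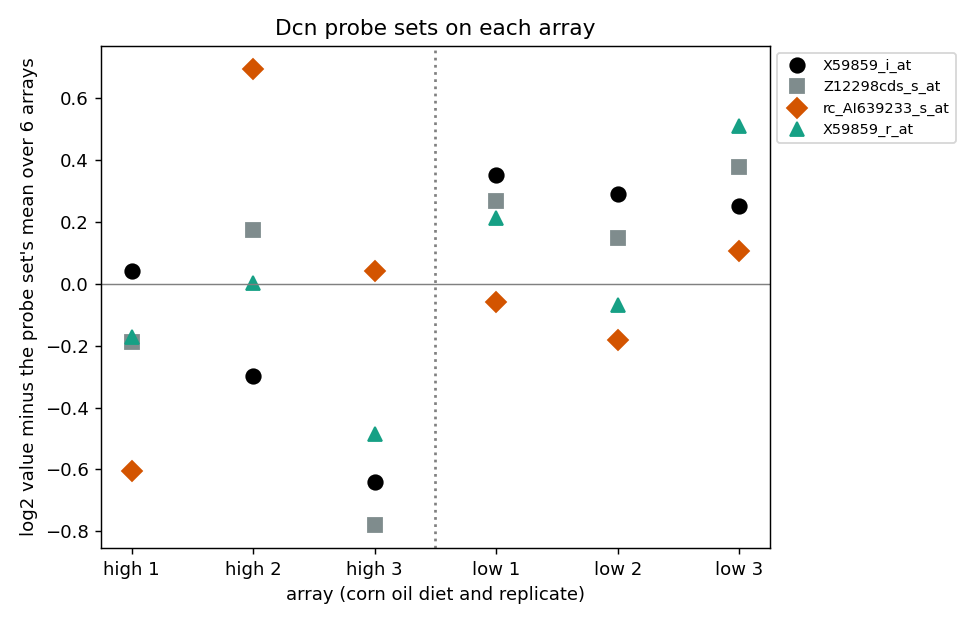
Log2 value of each of the 4 Dcn probe sets minus that probe set's mean over the 6 arrays (y axis), on each array (x axis, high corn oil left of the dotted line). On high corn oil replicate 3 the black, grey and green points are 0.49 to 0.78 below 0 and the orange one 0.04 above.

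Lum, the keratan sulfate proteoglycan lumican and the neighbour of Dcn, was lower under the high diet on every array. Its probe set X84039_at read 2753, 3930 and 2297 in high corn oil replicates 1 to 3 and 4523, 4457 and 4868 in low corn oil replicates 1 to 3. As with X59859_i_at of Dcn, the low corn oil arrays were close together and the high ones spread out, but for Lum it was high corn oil replicate 2 that came nearest to the low group, and for Dcn replicate 1. The means were 2993 ± 842 (SD, n = 3) and 4616 ± 221, with a log2 difference of -0.63 ± 0.21 (SE). Counting high corn oil replicate 3 as low gave -0.23.

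Bgn, the closest relative of decorin among these genes, was not lower by either probe set. U17834_at read 5944, 4724 and 6773 with much corn oil and 5320, 4169 and 5626 with little, and the groups overlapped. The log2 difference was 0.20 ± 0.19, and 0.08 without high corn oil replicate 3. The dimmer rc_AA859830_s_at read 959, 1397 and 722 against 549, 617 and 1228, with a log2 difference of 0.34 ± 0.35, which ran from 0.12 without high corn oil replicate 2 to 0.64 without low corn oil replicate 3. These probe sets disagreed array by array, by up to 0.78 on the log2 scale on high corn oil replicate 2, and high corn oil replicate 3 was the highest array for the first and below the mean for the second.

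Fmod, the fibromodulin gene, had nearly equal means. With rc_AI111481_s_at the values were 664, 1008 and 753 against 772, 725 and 901 (high corn oil first). The high corn oil arrays covered the whole range of the low ones, and the log2 difference was 0.00 ± 0.24. This does not show that the diets were equal for Fmod, only that the means were within 1 SE of each other. The second probe set, X82152_at, ranged from -80.1 to 300.3 and was not tested.

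**Figure D3:**
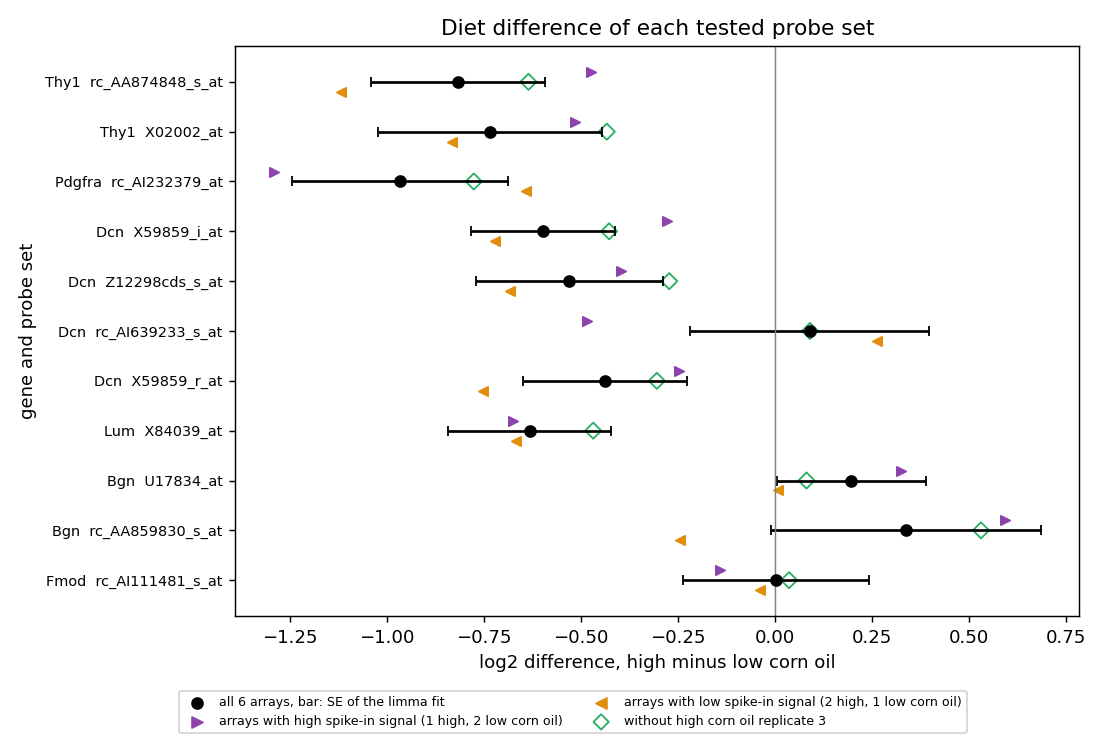
Log2 difference (high minus low corn oil, x axis) of each tested probe set, as black points with bars of 1 SE from the fit on all 6 arrays, beside the values in either spike-in group (triangles) and without high corn oil replicate 3. The Thy1, Pdgfra and Lum symbols all lie below 0, as their separate groups require. Those of rc_AI639233_s_at of Dcn, rc_AA859830_s_at of Bgn and Fmod lie on both sides.

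Set against the low corn oil mean, Thy1, Pdgfra, Dcn and Lum (each by its brightest probe set) averaged -0.68, -0.48 and -1.11 in high corn oil replicates 1 to 3 and 0.09, -0.09 and -0.003 in low corn oil replicates 1 to 3. Bgn and Fmod averaged 0.01, 0.11 and 0.18 against 0.03, -0.18 and 0.16. High corn oil replicate 3 was thus the lowest array for the first 4 genes, and it was the lowest of the 6 arrays for 7 of the 11 tested probe sets. The share over all 5244 probe sets was not counted, and 4 of the 11 are of Dcn, so nothing is read from this count. High corn oil replicate 3 is also the array whose description names the low diet. Over the 6 genes tested, the median log2 difference was -0.61, against 0.05 over all 3162 tested genes. It was -0.68 without high corn oil replicate 1, -0.45 without replicate 3 and -0.21 with replicate 3 moved to the low group.

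The spike-in groups, which cross the diets, gave these differences separately. Where spike-in signal was high (1 high and 2 low corn oil arrays), Thy1 was at -0.47, Pdgfra at -1.29, Dcn at -0.28 and Lum at -0.68. Where it was low (2 high and 1 low corn oil arrays), they were at -1.12, -0.64, -0.72 and -0.67. All 8 values were below 0. With the brightest probe set of each of these genes, every high corn oil array was below every low corn oil array. Any split holding both diets thus gives this sign, so nothing is read from it. The values of Lum were nearly equal. Bgn was at 0.33 and 0.01 and Fmod at -0.14 and -0.04. In rc_AI639233_s_at of Dcn the sign turned, from -0.48 to 0.26.

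Arrays were then compared gene with gene, with each gene centred on its own mean. Pdgfra and Lum were on the same side of their means on 6 of 6 arrays, and Thy1 and Dcn lay closest together, at a root mean square distance of 0.20 on the log2 scale. The 6 distances among Thy1, Pdgfra, Dcn and Lum were 0.20 to 0.39. Those from these 4 genes to Bgn were 0.51 to 0.76, and to Fmod 0.34 to 0.55. Centring over all 6 arrays keeps the diet difference in these distances. The 4 genes were already known to share that difference, so nothing is read from their nearness. Among the 3156 other tested genes, those nearest to the mean profile of the 6 genes were Igfbp2, a binding protein of insulin-like growth factors (distance 0.05), Fstl1, a secreted glycoprotein of mesenchymal cells (0.05), Hprt1, a purine salvage enzyme (0.07), Tprg1l (0.07) and Myl12a, a myosin regulatory light chain (0.08). Igfbp2 read 12867, 14229 and 10003 against 17357, 15614 and 16557 (high corn oil first). Fstl1 read 4953, 5174 and 3720 against 6911, 5782 and 6565. Both had their lowest value on high corn oil replicate 3, where the mean profile was also lowest. This follows from choosing them by nearness to that profile, so nothing is read from it.

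Other genes of these pathways and of other cell types were taken from 12 lists. Of their 80 tested genes, 0 passed limma's adjusted test and 10 were at an unadjusted p under 0.05, as were 9.58% of all 3162 tested genes. Of 12 other small leucine-rich proteoglycan genes, 3 had a probe set (Aspn, Omd and Chad) and only Omd, osteomodulin, was tested, at 879 ± 424 against 829 ± 199 and a log2 difference of 0.01 ± 0.35 (-0.30 to 0.30 with each array left out in turn). Of 17 genes for platelet-derived growth factors and the first steps of their receptor signalling, 11 were tested, with 6 lower, 5 higher and a median of -0.03 (-0.17 without high corn oil replicate 2 and 0.10 without replicate 1). Pik3r1, a regulatory subunit of PI 3-kinase, was at -0.94 ± 0.45 and the kinase gene Jak1 at -0.71 ± 0.41, both with overlapping groups. Without high corn oil replicate 1 these were -1.38 and -1.13, and Jak1 was at -0.31 without replicate 2. Of 20 genes that build the sulfated sugar chains, only Ugdh (-0.02 ± 0.23) and B4galt1 (0.17 ± 0.22) were tested. With each array left out in turn they ran from -0.25 to 0.10 and from 0.07 to 0.31.

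Other fibroblast genes were mostly lower, as 14 of 16 tested, with a median of -0.32 (-0.12 without low corn oil replicate 1) and 3 with separate groups. Over all 3162 genes 44.2% were lower, 6.33% had separate groups with the high diet lower and 9.39% with it higher. Fstl1 was at -0.47 ± 0.17 (SE) and Col1a2, a chain of collagen I, at -0.53 ± 0.23 (5484 ± 912 against 8131 ± 2318, and -0.31 without low corn oil replicate 1), and 0 of 16 passed limma's adjusted test. Without high corn oil replicate 1 Lox, the collagen cross-linking enzyme, passed (-2.06, limma adjusted p = 0.0219), in a setting where 3.13% of all 3162 genes did. On all arrays it was at -1.34, and at -0.86 without high corn oil replicate 3. The 2 higher genes were Sparc and Pcolce. Sparc read 28553 ± 4340 against 19603 ± 11244, a log2 difference of 0.67 ± 0.36 (0.37 to 1.11 with each array left out in turn). Pcolce was at 0.07 ± 0.30. Of the lower genes, Timp2, Serping1, Fn1, Mmp2 and Col5a1 were within 1 SE of 0. Several genes of this list were part of the earlier look at these arrays. The summed signal of the 17 genes with a probe set was 98694 to 103927 under the high and 99524 to 140155 under the low diet. These ranges overlapped, and bright genes such as Sparc weigh most in such a sum. In bulk tissue, the number of fibroblasts and the RNA per fibroblast cannot be told apart.

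Markers of other cells that carry these genes, or that share the tissue, had the following values. Of 9 tested smooth muscle and pericyte genes 7 were lower (median -0.24, and -0.52 without high corn oil replicate 2), with Actg2 (gamma smooth muscle actin) at -0.76 ± 0.28 (-0.47 without low corn oil replicate 1) and Abcc9, a potassium channel regulator of pericytes, at 1.22 ± 0.39. The summed signal of the 11 genes with a probe set was 138817 to 175200 under the high and 164790 to 203084 under the low diet. All 7 tested macrophage genes were lower (median -0.63, and 5 of 7 without high corn oil replicate 1 or with quantile normalization). Of them 4 had separate groups, as did 6.33% of all 3162 genes in that direction. Cd14 (-0.07), Lyz2 (-0.08) and Cd74 (-0.02) were within 1 SE of 0. Among the 7 genes Aif1 was at -0.76 ± 0.22 and C1qb, of complement, at -0.63 ± 0.18. The sum over 8 genes, 73121 to 95188 against 89201 to 96849, overlapped. Lyz2 (means 31737 and 32524, high corn oil first) and Cd74 (34070 and 34674) weighed most in this sum. No gene of these lists passed limma's adjusted test on all arrays. Abcc9 passed without high corn oil replicate 1 (1.65, limma adjusted p = 0.0257), as did 3.13% of all genes.

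Neurons, nerve sheath and, in the rat, some lymphoid cells can carry Thy1. Whether T cells of this tissue carried it was not tested. Of 4 tested T cell genes 2 were lower (median -0.08, but 1 of 4 and 0.09 without high corn oil replicate 1). Lck was at -0.66 ± 0.35, and with each array left out in turn from -1.004 (without high corn oil replicate 2) to -0.36 (without replicate 3). Cd8b was at 0.68 ± 0.40, and at 0.31 without low corn oil replicate 1. The sum over 8 T cell genes was 3657 to 5818 under the high and 4959 to 5562 under the low diet. Of 4 tested nerve genes 3 were lower, with a median of -0.26 that ran from -0.39 (without high corn oil replicate 2) to -0.04 (without low corn oil replicate 1) and was -0.13 on leaving out high corn oil replicate 1. Nefl, a neurofilament, was at -0.49 ± 0.33 (-0.22 without low corn oil replicate 1). Uchl1 was at -0.40 ± 0.35 (-0.10 on leaving out low corn oil replicate 1, and -0.15 on leaving out the high corn oil array of that number). The sum over 13 nerve genes was 8227 to 14326 against 8559 to 12993. Both sums overlapped between diets.

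Of 3 tested endothelial genes 1 was lower, and the median of 0.28, that of Flt1 (0.28 ± 0.39), was 0.65 without high corn oil replicate 1 and -0.06 without replicate 3. Icam2 was at 0.91 ± 0.90, and with each array left out from 0.35 to 2.05. Its values in low corn oil replicates 1 and 2, -59.8 and -213.4, were set to 0, and replicate 3 read 1504. The difference thus rests on values at the floor. The endothelial sum over 5 genes was 2299 to 4310 against 1778 to 4284. Of 4 tested adipocyte genes 3 were lower (median -0.34), led by Cfd, adipsin, at -1.08 ± 0.34. Lipe, the hormone-sensitive lipase, was at -0.58 ± 0.48, but -1.14 without high corn oil replicate 1, -0.32 without replicate 2 and -0.27 without replicate 3. The adipocyte sum over 7 genes was 6176 to 9465 against 8582 to 10532, and Plin1 was at or below 0 on all arrays. All 8 tested skeletal muscle genes were lower (median -0.34), but 4 of 8 without high corn oil replicate 1 (-0.06) and 4 of 8 without low corn oil replicate 2 (-0.11), and the median was -0.75 without high corn oil replicate 2. Pvalb was at -0.53 ± 0.27 (-0.25 without low corn oil replicate 2). Tnnc2 was at -0.56 ± 0.35 (-0.26 on leaving out high corn oil replicate 3 and -0.92 on leaving out replicate 2). The skeletal muscle sum over 10 genes was 18355 to 42782 against 29766 to 38464.

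Among 11 tested epithelial genes 4 were lower, with a median of 0.10 that ran from -0.07 (without high corn oil replicate 1) to 0.16 (without low corn oil replicate 1). Epcam was at 0.32 ± 0.14 with separate groups, and Msmb, a secreted prostate protein, at -0.65 ± 0.28 (-0.42 without high corn oil replicate 2). Some genes differed widely between rats of 1 diet. Sbp read 1891, 45313 and 53056 against 39729, 6801 and 12179 (high corn oil first), at 0.18 ± 1.26. Tgm4 read 31002, 27652 and 13870 against 37737, 41267 and 5749, at 0.13 ± 0.74. The sum over 12 genes was 245701 to 343561 under the high and 300359 to 348352 under the low diet, with the high value from high corn oil replicate 1. Without that array Msmb (-0.99, limma adjusted p = 0.0255) and Pbsn (-1.94, limma adjusted p = 0.00591) passed, as did 3.13% of all genes. The part of any of these cell types in the values of Thy1, Pdgfra, Dcn and Lum was not tested.

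**Figure D4:**
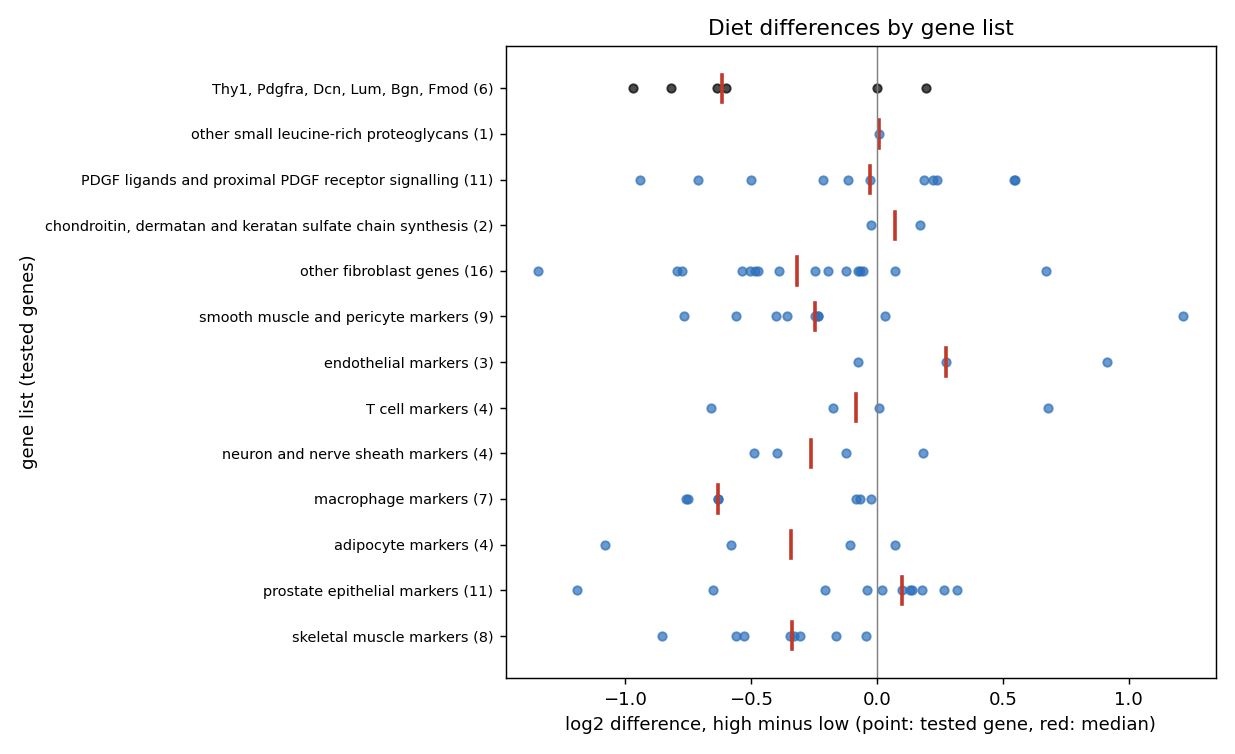
Log2 difference (high minus low corn oil, x axis) of every tested gene (points) in each gene list (y axis, number tested in brackets), with the list median in red. The top row has 4 points between -0.97 and -0.60 and 2 at 0.00 and 0.20. The macrophage row, with all 7 points below 0, has a median of -0.63.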

How the data were processed

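Intensity values of 8799 probe sets, 1 array per rat, were deposited by the authors on a linear scale. MAS5 is the only tool that the submitters' processing notes name, and its settings are not given in the sources used here. The deposited intensity had been scaled: with 2% trimmed at each end, the array means were 2503 to 2504. Values at or below 0 are present, and the step that made them is not given in the sources used here. No array was a copy of another (at most 0.0568% equal values).

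Probe sets were named from the platform annotation, with symbols updated through gene identifiers to GRCr8. Of the probe sets, 7006 had 1 gene, 308 several, 1426 none, and 59 were controls. Values below 0 were set to 0 and transformed as log2(value + 156.1), the median of all values (624.6) divided by 4, which understates differences of dim genes. Control probe sets were left out, and the others were kept from the 40th percentile of mean value. The diets were tested by limma 3.58.1 under R 4.3.3 (intensity trend, no covariate, Benjamini-Hochberg over 5244 probe sets, threshold 0.05), which was tested on simulated data. A gene was represented by its brightest probe set, also where lists were summed. The sums are of untransformed values, with those below 0 set to 0, so the brightest genes weigh most. Standard errors are limma's.

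The members, the gene lists and the settings were chosen with earlier results of these data known. Named were the 7 genes, the 2 genes with the smallest p in each of 12 other lists and the 5 genes nearest to the mean profile of the 6 tested. Further genes named were chosen after their values were seen: the genes that passed without high corn oil replicate 1 (Lox, Pbsn), Krt18, Plin1, Cd14, Lyz2 and Cd74. So were Sparc, Pcolce, Timp2, Serping1, Fn1, Mmp2, Col5a1, Sbp and Tgm4. Other settings changed the pseudocount, filter, normalization, trend, blocks, the diet assigned to high corn oil replicate 3, the probe set summary and the handling of values below 0, and left out each array in turn. The rats are separate animals per the labels.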

Additional observations from a re-analysis of the deposited data

How the results depend on the processing

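The median log2 difference of the 6 tested genes, -0.61 with all arrays, ran from -0.72 (without high corn oil replicate 2) to -0.45 (without replicate 3) when each array was left out in turn and was -0.21 with high corn oil replicate 3 moved to the low diet. For the Dcn probe sets the median was -0.07 in that setting. No probe set passed limma's adjusted threshold with all arrays, but 9 did with no filter, none of them of the 7 genes. Leaving out each array gave 0 to 214, the 214 of 5244 (4.08%) without high corn oil replicate 1, and for the genes of the other lists 0 to 4 (Abcc9, Pbsn, Lox and Msmb without that array). The remaining 59 comparisons of these summary values with another setting moved by less than the spread between arrays or kept the count. With the replicate number as a block (replicate block) the median was -0.61 and 0 probe sets passed. Replicate numbers did not pair the rats: deviations of same-numbered arrays correlated at -0.05, -0.20 and 0.18, and best agreement was with another number for replicates 1 and 2. Of the single gene and list values, 28 moved and 355 did not. With 3 arrays per diet and values near 0 for Pdgfrb, 3 Pdgfra and 1 Fmod probe set, signal limits what can be said of these.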
